A study of Mus musculus with 391 samples.

Results

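Cxcl12, Cxcr4 and Ackr3 encode a secreted chemokine and its 2 receptors, and they were taken by symbol as 3 of the 56941 genes in a table of read counts. All 3 were read in both classes of cells. The cells came from the brains of adult mice: vascular fragments were digested to single cells, which were plated by sorting and sequenced along whole transcripts with Smart-seq2. The labels placed 111 cells in an endothelial class and 280 in a microglia class. The deposited cell table codes them CP-EC and MG, and no genotype, strain, sex, treatment or animal is given for either. Each class is therefore 1 sample, no test was run between classes, and every difference is given as a level with its counting error.

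CXCL12 is a chemokine that binds heparan sulfate on cell surfaces and matrix and guides leukocytes, progenitor cells and growing vessels. CXCR4 is a receptor coupled to inhibitory G proteins and drives migration towards the chemokine. ACKR3, formerly called CXCR7, binds the same ligand but recruits arrestin without classical G protein signalling, and takes the ligand up for degradation. In the brain, CXCL12 from vessel walls and meninges is known to hold CXCR4-bearing cells near vessels.

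Levels are given as CPM, a gene's reads after scaling every total of gene reads to the same size, pooled over the cells of a class unless a cell is named. Parentheses hold exact 95% intervals (Poisson for levels, conditional binomial for ratios, Clopper-Pearson for shares of cells). The reads carry no molecular identifiers, so these intervals cover counting error only and say nothing of variation between animals. The endothelial class held 21361227 gene reads with a median of 174345 per cell (range 83954 to 602175). The microglia class held 47508014 with a median of 146506 (range 39876 to 504875). Plates were inferred from the column names. Plates A and B held both classes, with 7 and 10 endothelial cells beside 133 and 147 microglia-class cells. Plates C and D held 50 and 44 endothelial cells and none of the other class. Of 16 endothelial core markers, 15 were at least 4-fold higher in the endothelial class on the log2(CPM + 1) scale. All 16 microglia core markers were so in the other class. Over 14989 genes at 1 CPM or more in either class, 11.7% passed towards the endothelial class and 19.9% towards the microglia class. Of 14 border macrophage markers, 13 were also at least 4-fold higher among the cells labelled microglia, which fell into 3 clusters described with Cxcr4. By the criterion of several markers of the opposite class, 1 cell of each class stood out.

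The 250 bases upstream of each annotated start are shown to set the regulatory context of the 3 genes beside one another. They are the RefSeq promoters of build GRCm38.p6, written 5′ to 3′ on the strand of the gene. Capitals mark GCGTG or ACGTG, the core letters to which hypoxia-inducible factors bind, and TATAAA, the letters of the TATA box, on either strand.
Cxcl12: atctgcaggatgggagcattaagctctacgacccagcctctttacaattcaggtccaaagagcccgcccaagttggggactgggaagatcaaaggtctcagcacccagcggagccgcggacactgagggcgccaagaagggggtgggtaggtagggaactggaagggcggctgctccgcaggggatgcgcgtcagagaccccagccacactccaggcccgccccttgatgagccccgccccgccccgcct
Cxcr4: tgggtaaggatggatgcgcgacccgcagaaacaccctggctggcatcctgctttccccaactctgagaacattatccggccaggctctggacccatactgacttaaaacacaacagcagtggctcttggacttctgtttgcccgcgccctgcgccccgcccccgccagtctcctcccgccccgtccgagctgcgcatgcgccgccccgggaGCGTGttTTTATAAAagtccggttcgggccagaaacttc
Ackr3: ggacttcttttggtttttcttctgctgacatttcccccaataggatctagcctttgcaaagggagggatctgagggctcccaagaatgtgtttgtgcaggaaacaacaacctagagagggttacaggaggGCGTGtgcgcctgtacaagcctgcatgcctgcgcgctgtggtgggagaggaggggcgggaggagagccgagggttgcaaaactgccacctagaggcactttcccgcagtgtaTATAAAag
The Cxcl12 window is chr6:117168285-117168534 on the plus strand, the Cxcr4 window chr1:128592300-128592549 on the minus strand and the Ackr3 window chr1:90203730-90203979 on the plus strand. The Cxcl12 window held neither kind of motif, and it was GC-rich at 64.4% with 14 CpG. The GC content of the Cxcr4 window was 61.2% with 19 CpG. It held the letters GCGTG at 39 to 35 bases before the start and TATAAA at 30 to 25, which overlaps a match on the other strand at 32 to 27. The GC content of the Ackr3 window was 54.0% with 7 CpG, and it held the letters GCGTG at 120 to 116 and TATAAA at 8 to 3 bases before the start. Over 32851 RefSeq promoters of this length, 38.6% held either hypoxia core and 12.4% held TATAAA, and the medians were 52.4% for GC content and 6 for CpG. A match describes the letters in the window and shows no binding.

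The ligand was high in the endothelial class and low in the microglia class. Cxcl12 gave 17688 reads in the endothelial class, a level of 828 CPM (816 to 840). In the microglia class it gave 552 reads, or 11.6 CPM (10.7 to 12.6). The ratio was 71.3 (65.5 to 77.7), so Cxcl12 was among the 11.7% of 14989 genes at 1 CPM or more that were at least 4-fold higher in the endothelial class. The difference held on both plates that carried the 2 classes. On plate A the levels were 1648 and 9.84 CPM, a ratio of 168 (143 to 198), and on plate B they were 1647 and 12.6 CPM, a ratio of 131 (118 to 146). Compared with the pooled cells, these shared plates gave higher ratios, and they rest on 17 endothelial cells.

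Within the endothelial class Cxcl12 varied over a wide range from cell to cell. The lowest cell had no read, the median cell 121 CPM and the highest 7216 CPM, with quartiles at 14.2 and 1355 CPM. Above 1000 CPM stood 36 cells, a further 21 lay between 100 and 1000, 32 between 10 and 100, 12 lower than that, and 10 had no read. The 12 highest cells held 47.5% of all Cxcl12 reads of the class. A read was found in 101 of 111 cells (91.0%, 84.1 to 95.6) and 10 or more reads in 59 cells (53.2%, 43.5 to 62.7). With each cell thinned to 71000 reads, 88 cells (79.3%) kept a read.

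The scavenging receptor was high in the same class as the ligand, with a larger ratio. Ackr3 gave 13216 reads, or 619 CPM (608 to 629), in the endothelial class and 91 reads, or 1.92 CPM (1.54 to 2.35), in the microglia class, a ratio of 323 (263 to 402). One microglia-class cell on plate A held 61 of those 91 reads, and without the highest cell of each class the log2 ratio moved from 7.73 to 8.51. On plate A the levels were 1341 and 4.59 CPM, a ratio of 292 (232 to 372). On plate B they were 1114 and 0.456 CPM, a ratio of 2447 (1455 to 4483) that rests on 14 microglia-class reads. Without plate A the log2 ratio was 8.65, and without plate B it was 6.66.

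Ackr3 too was spread unevenly over endothelial cells. The lowest cell had no read, the median cell 197 CPM and the highest 5429 CPM, with quartiles at 3.26 and 1103 CPM. There were 30 cells above 1000 CPM, 33 between 100 and 1000, 11 between 10 and 100, 10 lower, and 27 with no read. The 12 highest cells held 41.8% of its reads. A read was found in 84 cells (75.7%, 66.6 to 83.3), 10 or more in 67 (60.4%, 50.6 to 69.5), and 77 (69.4%) kept a read after thinning. Ackr3 thus had more cells without a read than Cxcl12 and also more cells with at least 10 reads.

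The signalling receptor ran the other way. Cxcr4 gave 978 reads in the microglia class, or 20.6 CPM (19.3 to 21.9), and 27 reads in the endothelial class, or 1.26 CPM (0.833 to 1.84). The ratio of microglia to endothelial class was 16.3 (11.1 to 24.8), which put Cxcr4 among the 19.9% of genes past 4-fold towards the microglia class. On the shared plates endothelial cells had no Cxcr4 read. With the endothelial level set at a floor of 3 reads over the cells of a plate, microglia-class cells were at least 3.02-fold higher on plate A (9.42 CPM) and at least 18.9-fold higher on plate B (26.7 CPM). The lower limits of the exact intervals of these ratios were smaller, at 2.43 and 15.3. Plate B carried most of the Cxcr4 reads: without it the log2 ratio of endothelial to microglia class was -2.12 in place of -3.25.

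**Figure D1:**
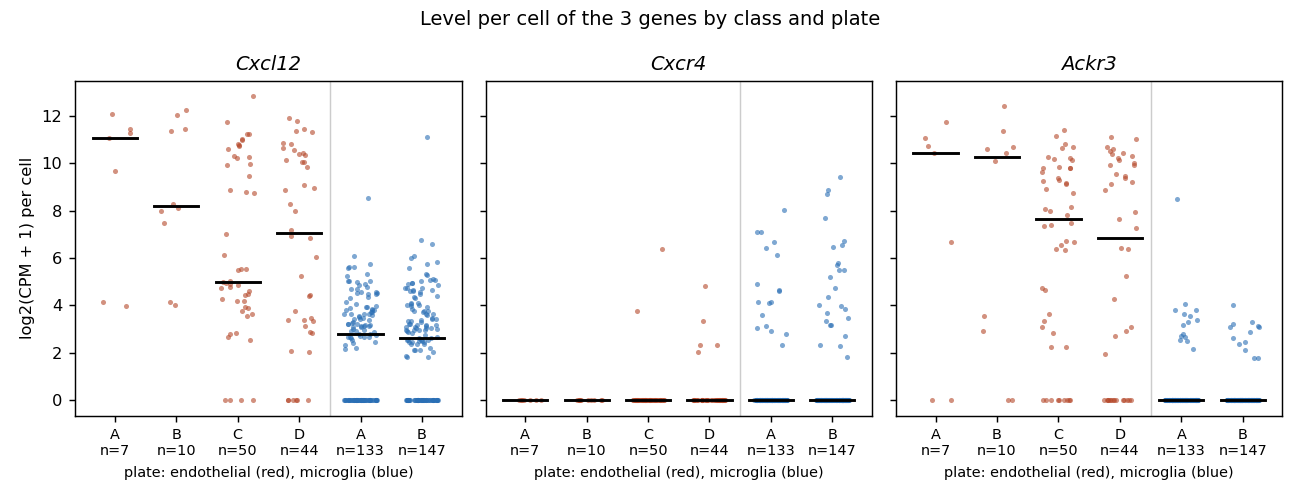
Level per cell, log2(CPM + 1), of the 3 genes, by plate, with endothelial cells in red and microglia-class cells in blue; each point is a cell. Cxcl12 and Ackr3 reach 7216 and 5429 CPM in endothelial cells, and Cxcr4 reaches 689 CPM in microglia-class cells and 81.2 CPM in an endothelial cell.

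In endothelial cells Cxcr4 rested on few reads. A read was found in 7 of 111 cells (6.31%, 2.57 to 12.6). One cell on plate C held 15 of the 27 reads, at 81.2 CPM. That cell also carried the other genes of the axis, with Cxcl12 at 693 CPM and Ackr3 at 1223 CPM. Its endothelial core markers summed to 26683 CPM and its microglia core markers to 325 CPM, against class medians of 31657 and 38.2. On plate D, 5 cells shared 10 reads. The 0 of 7 and 0 of 10 cells on plates A and B allow shares of up to 41.0% and 30.8%, so absence there cannot be read from these cells.

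Few cells of the microglia class carried Cxcr4. Of 280 cells, 44 had a read (15.7%, 11.7 to 20.5) and 14 had 10 or more (5.00%, 2.76 to 8.25). The median cell had none and the highest had 689 CPM, with 9 cells above 100 CPM. The 28 highest cells held 97.9% of the reads, and 2 cells held 251 and 214 of the 978. After thinning, 31 of 246 cells (12.6%) kept a read, and 34 cells were too shallow to thin. The 14 cells with 10 or more reads were also deeper, with a median of 260280 gene reads against 139596 in the others. The part of depth in these counts was not tested beyond the thinning.

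Within the microglia class the Cxcr4 reads fell unevenly over 3 clusters, which were made without the 3 genes. Cluster 1 (194 cells) is called border-macrophage-like because Cbr2, F13a1, Pf4 and Ms4a7 were among its 10 leading genes, and its border macrophage markers summed to 13411 CPM against 909 in the other cells. Cluster 2 (53 cells) is called microglia-like because Slc2a5, Adgrg1, Sall1 and Sparc were among its leading genes and 12 of 12 homeostatic markers had a read in 50% or more of the cells. Cluster 3 (33 cells) was given no cell type name. It was led by Tnip3, Dpp4, Olfm1, Napsa and Mcemp1, its MHC class II markers summed to 30769 CPM against 8350 in the other cells, and its dendritic cell markers to 5078 against 234 CPM. A read in 50% or more of its cells was found for 6 of 13 dendritic cell, 9 of 14 border macrophage and 9 of 12 homeostatic markers, of which the border macrophage markers summed to 1428 CPM against 9912 and the homeostatic to 651 against 11327 in the other cells. The microglia core markers summed to 13747 CPM in cluster 3 against 38977 in the rest of the class.

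Cxcr4 was highest in the unnamed cluster 3, at 74.2 CPM (68.4 to 80.5). It stood at 13.0 CPM (11.8 to 14.4) in the border-macrophage-like cluster and at 0.746 CPM (0.322 to 1.47) in the microglia-like cluster. A read was found in 14 of 33 cells of cluster 3 (42.4%, 25.5 to 60.8), in 28 of 194 cells of cluster 1 (14.4%, 9.81 to 20.2) and in 2 of 53 cells of cluster 2 (3.77%, 0.460 to 13.0). Median gene reads per cell were 211109, 127002 and 198081 in that order. After thinning, the shares were 37.5%, 10.4% and 4.00%. The order of clusters 3, 1 and 2 was kept on each plate, with 53.2, 6.14 and 1.51 CPM on plate A and 79.3, 17.5 and 0.296 CPM on plate B. Single cells weigh on the sizes. Without its highest cell, the level of each cluster in that order was 45.0, 5.69 and 0.190 CPM. Without cluster 3 that log2 ratio was -2.24 in place of -3.25.

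**Figure D2:**
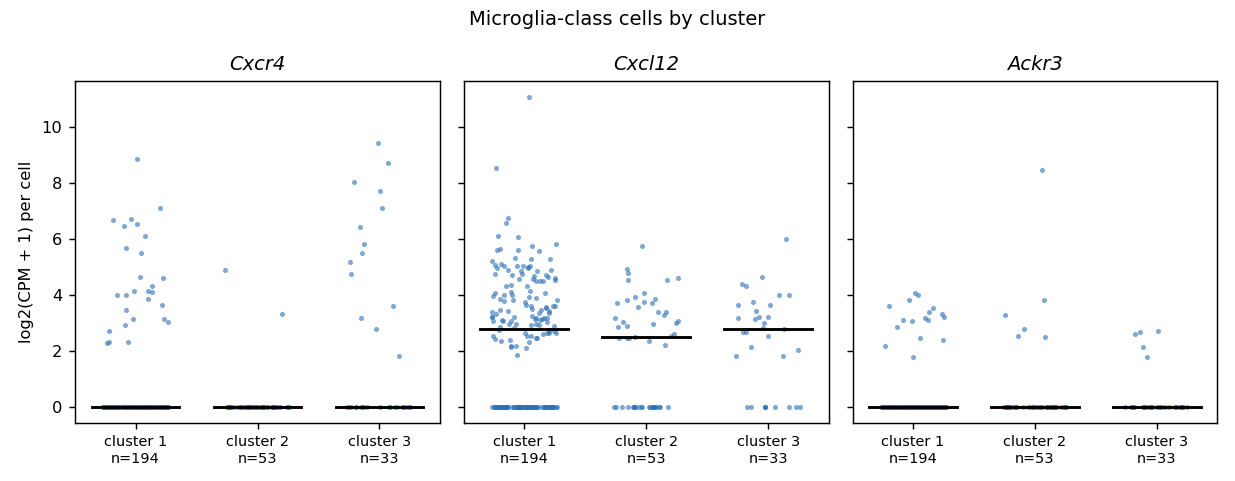
Level per cell, log2(CPM + 1), in the 3 clusters of the microglia class; each point is a cell. For Cxcr4, 14 of 33 cells of cluster 3 lie above 0, against 28 of 194 in cluster 1 and 2 of 53 in cluster 2.

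The cells with the most Cxcr4 were set beside the other cells of the class by single marker genes. These markers were picked from the cell type lists after values were seen. Of the 14 cells with 10 or more Cxcr4 reads, 9 lay in cluster 3. The 14 cells had a median of 260280 gene reads against 139596 in the others, so they pass 10 reads of a marker more easily. Marker shares were not thinned, and the part of depth in them was not tested. Of these 14 cells, 13 also had 10 or more reads of H2-Aa, a chain of MHC class II, against 66.9% of the other cells. Mrc1, a mannose receptor of macrophages, passed 10 reads in 7 of them (50.0%) and in 68.0% of the others. Ccr2, the monocyte chemokine receptor, passed in 7 (50.0%) and in 14.3% of the others, and Flt3, a cytokine receptor of dendritic cells, in 4 (28.6%) and in 4.14%. None of the 14 passed for Sall1, a microglial transcription factor, which 14.3% of the others did. Cd3e (T cells), Cd79a (B cells) and S100a8 (neutrophils) passed in no more than 0.376% of the others either, so they do not set the 14 cells apart. Dpp4, a peptidase that removes the end of CXCL12, stood at 368 CPM in cluster 3 and at 0.660 and 0.0933 CPM in clusters 1 and 2. Of the 33 cells of cluster 3, 19 had 10 or more Dpp4 reads, 14 had 1 or more Cxcr4 reads and 8 had both. This is about as many as the separate shares give, so within the cluster the 2 genes did not go together more often.

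Low numbers of Cxcl12 reads occurred in many microglia-class cells. A read was found in 175 of 280 (62.5%, 56.5 to 68.2), but 10 or more in 2 cells (0.714%). The median cell had 5.64 CPM and thinning lowered the share to 36.6% of 246 cells. By cluster the share was 61.3%, 60.4% and 72.7% in clusters 1, 2 and 3. The 2 cells with 10 or more reads held 38 reads (372 CPM, plate A) and 162 reads (2167 CPM, plate B). Both lay in the border-macrophage-like cluster, with microglia core markers at 39499 and 42844 CPM and endothelial core markers at 539 and 241 CPM, against a class median of 113 CPM for the latter. Without the microglia-class cells that had 10 or more reads of Cxcl12 or Ackr3, the log2 ratio of Cxcl12 moved from 6.04 to 6.61.

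Set beside other genes high in endothelial cells, this share was large while the level was not. The 594 genes compared were at least 4-fold higher in the endothelial class and at 100 CPM or more there. Their microglia-class level was a median 3.51% of their endothelial level. The 4-fold rule caps this percentage for every gene of the set, Cxcl12 and Ackr3 included. For Cxcl12, 360 of these genes had a higher percentage, and for Ackr3, at 0.310%, 435 had. The share of microglia-class cells with a read had a median of 12.9% over these genes. It was 62.5% for Cxcl12, and 15 genes were higher. For Ackr3 it was 10.0% (28 cells), and 354 genes were higher. The one microglia-class cell with 10 or more Ackr3 reads lay in the microglia-like cluster at 354 CPM, with endothelial core markers at 29.0 CPM. The source of the low Cxcl12 counts was not tested.

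**Figure D3:**
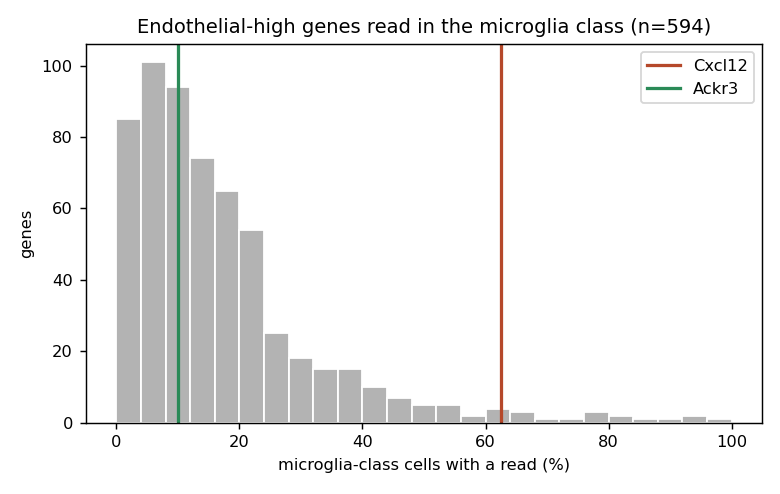
Histogram of 594 genes high in the endothelial class by the share of microglia-class cells with a read (x axis, percent; y axis, number of genes); vertical lines mark Cxcl12 and Ackr3. Cxcl12 stands at 62.5%, right of most genes, and Ackr3 at 10.0%, near the median of 12.9%.

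Ligand and scavenging receptor were found in the same endothelial cells about as often as their separate shares give. With 1 read as the limit, 76 of 111 cells had both, 25 Cxcl12 alone, 8 Ackr3 alone and 2 neither, and the product of the shares gives 76.4 cells. With 10 reads, 35 cells (31.5%, 23.0 to 41.0) had both, 24 Cxcl12 alone, 32 Ackr3 alone and 20 neither, against 35.6 from the product. After thinning, 63 cells had both, against 61.1. By plate, cells with 10 or more reads of both numbered 4, 6, 15 and 10 on plates A to D, against products of 3.57, 4.80, 13.9 and 13.1. The rank correlation of the levels over the 111 cells, which share plates and differ in depth, was 0.01. On plates A to D it was -0.36, 0.25, 0.07 and -0.19.

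The level of either gene was much alike with and without the other. Cxcl12 stood at 835 CPM in the 67 cells with 10 or more Ackr3 reads (lowest 0, median 126, highest 7216) and at 817 CPM in the other 44 (0, 118, 4303). Ackr3 stood at 633 CPM in the 59 cells with 10 or more Cxcl12 reads (0, 224, 5429) and at 599 CPM in the other 52 (0, 187, 3422). The groups overlap over nearly their whole range in both cases.

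**Figure D4:**
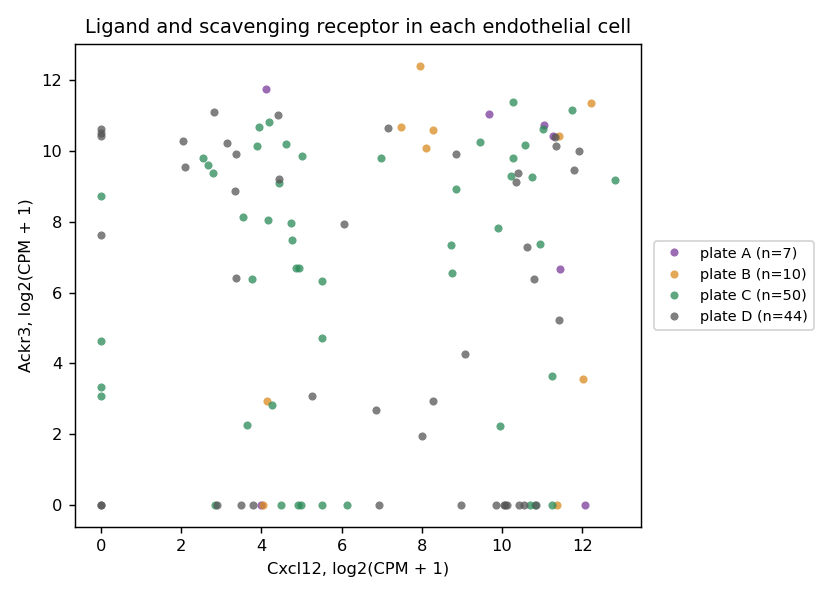
Ackr3 against Cxcl12 in each of 111 endothelial cells, both as log2(CPM + 1), coloured by plate. Cells fill all 4 corners: 35 have at least 10 reads of both genes, 24 and 32 of Cxcl12 or Ackr3 alone, and 20 of neither.

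Cells with Cxcr4 reads also had reads of the other genes about as often as the separate shares give. Of the 7 endothelial cells with a Cxcr4 read, 6 had a Cxcl12 read and 5 an Ackr3 read, against products of 6.37 and 5.30. Of the 44 microglia-class cells with a Cxcr4 read, 28 had a Cxcl12 read, against 27.5, and 6 an Ackr3 read, against 4.40. With 10 reads as the limit Cxcl12 and Cxcr4 could hardly meet in that class, with 2 cells for Cxcl12 and 14 for Cxcr4. The count of 0 cells with both stands beside a product well below 1 cell.

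Endothelial cells of plates A and B carried more of both Cxcl12 and Ackr3 than those of plates C and D. Pooled Cxcl12 levels were 1648, 1647, 672 and 710 CPM on plates A to D, and the median cells stood at 2117, 290, 31.0 and 132 CPM. On plate A cells ranged from 14.8 to 4303 CPM, on B from 15.4 to 4789, on C from 0 to 7216 and on D from 0 to 3841, so the plates overlap. Ackr3 levels were 1341, 1114, 530 and 516 CPM, with median cells at 1378, 1230, 201 and 119 CPM. Plates A and B together against C and D gave 1647 and 690 CPM for Cxcl12, 2.39-fold, and 1185 and 523 CPM for Ackr3, 2.27-fold. Over the 594 endothelial-high genes the median of this ratio was 0.907, and 23 and 29 genes exceeded Cxcl12 and Ackr3. These genes were chosen on the pooled endothelial level, to which plates C and D gave 94 cells and plates A and B 17. The effect of that choice on the median and the ranks was not tested.

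Other values moved with the plates. Endothelial core markers summed to 31606, 32491, 31447 and 28958 CPM on plates A to D, with the lowest on plate D. Markers of mural cells, the contractile cells around vessels, summed to 15.6, 21.7, 146 and 476 CPM, and microglia core markers to 280, 126, 151 and 180 CPM. The endothelial class also fell into 2 clusters, made without the 3 genes, that were unevenly spread over the plates. Cluster 2 (28 cells) held 6 of 7 cells of plate A and 8 of 10 of plate B, but 2 of 50 of plate C and 12 of 44 of plate D, and cluster 1 (83 cells) held the rest. Within cluster 2, the 14 cells of plates A and B stood at 2000.1 CPM (1945 to 2056) for Cxcl12 and the 14 of plates C and D at 647.5 CPM (618 to 678). For Ackr3 they stood at 1172 CPM (1129 to 1215) and 285 CPM (265 to 305). The cells overlapped, from 15.4 to 4789 against 0 to 2572 CPM for Cxcl12 and from 0 to 5429 against 0 to 1616.5 CPM for Ackr3. In this cluster Ackr3 stood at 716 CPM in the 2 cells of plate C and at 228 CPM in the 12 of plate D. Within cluster 1, 3 cells of plates A and B stood at 181 CPM for Cxcl12 (lowest 14.8, highest 307), below the 697 CPM of the 80 cells of plates C and D. For Ackr3 those 3 cells stood at 1241 CPM (0 to 1632) against 565 CPM. In pooled levels the plate difference was thus present for both genes in cluster 2. In cluster 1 it was opposite for Cxcl12, on 3 cells. The part of the mural and microglia markers in it was not tested.

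Among the other ligands of the axis no gene stood out in either class. The list held 6 genes, of which 5 were measured at 1 CPM or more, and Cxcl12 was the one at least 4-fold apart. Cxcl14, a chemokine that binds CXCR4, stood at 20.8 CPM in the microglia and 5.62 CPM in the endothelial class. Mif, a cytokine that binds CXCR4 and CD74, stood at 25.9 and 19.1 CPM. Hmgb1, a nuclear protein that joins CXCL12 outside the cell, stood at 39.4 and 40.1 CPM. Adm, the precursor of adrenomedullin, which ACKR3 also scavenges, stood at 2.88 and 4.82 CPM. Cxcl11, the other chemokine of ACKR3, had no read in any cell.

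All 9 receptors and subunits of the axis list differed by 4-fold or more, 4 towards the microglia class and 5 towards the endothelial class, where 31.7% of all genes passed in either direction. On the endothelial side with Ackr3 were Gpr182, an atypical receptor that also binds CXCL12, at 128 CPM (36.0% of cells), with 3 reads among microglia-class cells, and Calcrl, the adrenomedullin receptor, at 321 against 22.7 CPM. Ramp2 and Ramp3, the subunits that turn CALCRL into an adrenomedullin receptor, stood at 1528 against 6.90 CPM and at 950 against 0.463 CPM. On the microglia side with Cxcr4 were Cd74, the MIF receptor and invariant chain, at 3732 against 42.9 CPM, Cxcr3, the receptor that shares CXCL11 with ACKR3, at 44.5 against 0.281 CPM, and Ramp1, the CGRP receptor subunit, at 149 against 7.40 CPM. Reads of Gpr182, Ramp3 and the ligand Hmgb1 may include those of antisense genes, because the use of strand in counting is not given. The antisense gene of Gpr182 had 673 reads and that of Ramp3 had 8. Uspl1, the antisense gene of Hmgb1, had more reads than Hmgb1 had in either class. The levels of Hmgb1 and its rank by length are therefore uncertain.

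**Figure D5:**
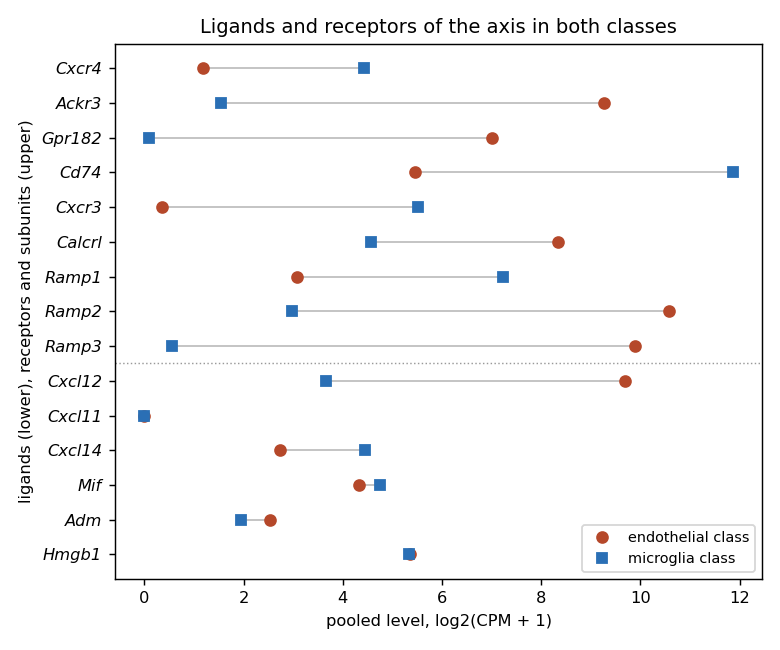
Pooled level, log2(CPM + 1), of each ligand (lower) and receptor or subunit (upper) in the endothelial class (circles) and the microglia class (squares). The largest gaps are those of Ramp3 (950 against 0.463 CPM), Ackr3 (619 against 1.92 CPM) and Ramp2 (1528 against 6.90 CPM).

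Divided by annotated exon length, the ligands and receptors were ranked within a class. In CPM per kilobase of exon, Ramp3 (689) and Ramp2 (463) led the endothelial class, followed by Ackr3 (185), Cxcl12 (101), Calcrl (65.7) and Gpr182 (32.5). Mif, Cd74, Hmgb1, Cxcl14, Adm and Ramp1 came next, from 25.6 down to 2.45, and then Cxcr4 (0.699) and Cxcr3 (0.162), with Cxcl11 at 0. Cxcl12 exceeded Ackr3 in CPM but not per length, since its annotated exons cover 8176 bases against 3348. Which transcripts the cells used was not examined, so this order depends on the length taken. In the microglia class Cd74 (2223) led, then Ramp1 (49.5), Mif (34.8), Cxcr3 (25.7), Cxcr4 and Cxcl14 (both 11.4) in the same unit. Hmgb1, Calcrl, Ramp2 and Adm lay from 7.84 down to 1.78, ahead of Cxcl12 (1.42), Ackr3 (0.572), Ramp3 (0.336) and Gpr182 (0.0160). Ackr3 shared endothelial cells with its neighbours in the axis at about the product of shares, with 10 or more reads of both in 15 cells for Gpr182 (product 13.3), 36 for Calcrl (33.8) and 54 for Ramp3 (54.3).

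Cxcr3, the other CXC receptor of the list in the microglia class, was highest in another cluster than Cxcr4. Its level was 70.7 CPM in the border-macrophage-like cluster, 0.187 in the microglia-like cluster and 9.48 in cluster 3. Ccr2 had the same order of clusters as Cxcr4, at 207.5, 5.97 and 966 CPM in clusters 1, 2 and 3.

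The remaining genes around the axis were set out by role, and members at 1 CPM or more were counted as measured. Of 8 measured chemokine receptors other than Cxcr4 and Ackr3, 6 were called towards the microglia class (19.9% of all genes), led by Cx3cr1, the fractalkine receptor, at 2067 against 5.20 CPM. Ccr1 stood at 338 and Ccr2 at 290 CPM in that class. Ccrl2, a chemerin-binding receptor, was the one between, at 662 against 178 CPM, and Ackr2, a scavenger of CC chemokines, the one higher in the endothelial class, at 27.3 CPM. Of 10 other CXC ligands, 7 were called on the same side, among them Pf4 (709 against 3.61 CPM), Cxcl16 (473 against 44.6), Cxcl2 (156 against 0.187) and Cxcl10 (141 against 4.07). The median log2 ratio of microglia to endothelial class was 6.35 for the receptors and 3.63 for the ligands, against 0.36 over all genes tested.

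Proteases that cut CXCL12 were on the microglia side, and carriers of heparan sulfate that hold it were called about as often as all genes. All 4 measured proteases passed 4-fold on that side, where 19.9% of all genes did: Mmp14 at 116 against 1.50 CPM, Dpp4 at 62.5 against 2.39, Mmp2 at 22.7 against 0.187 and Mmp9 at 12.0 against none. Of 17 heparan sulfate genes, 5 were higher in the endothelial class, 1 in the microglia class and 11 between, where 31.7% of all genes were called in either direction, with a median log2 ratio of -0.26. Hspg2, the basement membrane proteoglycan perlecan, stood at 2314 CPM in the endothelial class and 0.463 in the other. Ndst1, a sulfotransferase of the chain, stood at 233 against 20.5 CPM, Ext2, a chain polymerase, at 250 against 146 CPM, and Sdc4, the syndecan on the microglia side, at 274 against 0.609 CPM.

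The G proteins that CXCR4 uses were present in both classes. Of 14 genes, 9 lay between the classes, 4 were higher in the endothelial class and 1 in the microglia class, a share of calls near the 31.7% of all genes. Gnai2, the inhibitory alpha subunit, stood at 761 CPM in the microglia and 1010 CPM in the endothelial class, and Gnb1 at 291 and 496. Of the 5 gamma subunits, Gng11 stood at 373 CPM in the endothelial class against 3.26 and Gng10 at 35.7 CPM against 362, while Gng2, Gng5 and Gng12 lay between. Of 13 genes that switch off or sort the receptors, 11 lay between, among them Grk2, the receptor kinase (183 and 125 CPM), Hgs (129 and 152) and Vps4a (69.6 and 157), sorting proteins that lead to the lysosome. Of the beta-arrestins, both of which ACKR3 can recruit, Arrb2 was higher in the microglia class, at 125 against 1.69 CPM, and Arrb1 lay between, at 61.1 and 50.8 CPM.

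Regulators and effectors of migration were called more often towards the microglia class, as were all genes (19.9% against 11.7%). Of 11 RGS genes, whose products shorten G protein signals, 6 were higher in the microglia and 2 in the endothelial class, with Rgs2 at 1222 against 11.2 CPM, Rgs10 at 779 CPM in the microglia class, Rgs1 at 610 against 0.281 and Rgs19 at 341 against 75.1. Of 25 effectors of chemotaxis, 9 were higher in the microglia class, 1 in the endothelial class and 15 between. Cdc42 (1096 and 898 CPM), Rac1 (466 and 801) and Rhoa (260 and 397), the general small GTPases, lay between, and Rac2, the blood cell form, stood at 526 against 0.421 CPM.

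Transcription factors of the hypoxia response and others listed around the 3 genes mostly lay between the classes, as did all genes, of which 31.7% were called. Of 8 measured transcription factors and genes of the oxygen-sensing pathway, 7 lay between. Among them were Hif1a (107 and 121 CPM), Yy1 (83.1 and 32.3) and Vhl (72.6 and 34.2). Epas1, the second hypoxia-inducible factor, stood at 1991 CPM in the endothelial class against 6.08. Of 9 hypoxia target genes, 7 lay between, such as P4ha1 (198 and 145 CPM), Slc2a1 (80.7 and 182) and Pdk1 (45.8 and 33.2), while Ndrg1 stood at 717 CPM in endothelial cells and 33.4 in the others. Of 15 immediate early genes, which respond quickly to many stimuli, 4 were higher in the microglia class and 11 between. Fos stood at 4343 and 2010 CPM, Zfp36 at 3292 and 872, Jun at 3213 and 2575 and Dusp1 at 2828 and 1285 in the microglia and endothelial class, and Egr2 at 219 and 0.0936. Over all lists of the axis together, 145 of 169 genes were measured, 44 passed 4-fold towards the microglia class and 22 towards the endothelial class, beside 19.9% and 11.7% of all genes.

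No gene followed any of the 3 closely from cell to cell. Over 1184 genes read in at least 50% of endothelial cells, the highest rank correlations with Cxcl12 were those of Sptbn1 (0.30), Klf2 (0.29), Pltp (0.29), Cdc42ep1 (0.29) and Hspb1 (0.28), where the lowest was -0.29. With Ackr3 they were Itm2a (0.28), Sdf4 (0.28), Clic5 (0.27), Elovl5 (0.27) and Dnaja2 (0.26), where the lowest was -0.34. Over 4263 genes read in at least 20% of microglia-class cells, those with Cxcr4 were Myo1g (0.31), Zfp263, Gmfg, Lgals3 and Sugt1 (each 0.26), beside 0.21 for the number of genes read per cell. Values this weak in sparse counts, with cells that share plates and differ in depth, are given as a description and not as a finding.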

How the data were processed

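The authors deposited raw read counts, whole numbers for each gene in each of 391 cells. The submitters' processing notes name the build GRCm39, featureCounts, Subread 1.4.6-p5 and SAMtools 1.16.1. The sources used here do not give the aligner, annotation, strand or treatment of multiply mapped reads. Classes came from the labels, and count columns were tied to them through a deposited cell table. Plates were read from the column names. No cell was filtered and no doublet caller was run; no count column was left out.

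Reads were summed per class and scaled to CPM. Where a class or plate had no read, the floor was 3 reads. Log2 ratios used a pseudocount of 1 CPM, which understates ratios of low genes. Genes at 1 CPM or more in either class were tested for size, at 4-fold. For shares, cells were thinned to 71000 reads. Clusters used 2000 variable genes, 20 components, 15 neighbours and Leiden at resolution 0.5 (scanpy 1.11.5). Exon lengths came from GENCODE annotation of GRCm38, an older build than that of the counts, used for lengths and names. The class comparison was run on simulated reads with counting error alone, and the ranking of like genes on simulated linked genes. The intervals were therefore not tested against the spread between cells or animals. The alternative TMM scaling used edgeR 4.0.16.

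The 3 genes, the 13 lists around them and the 22 cell type lists were chosen with earlier results of these data known; the dendritic cell list was written knowing that Napsa led a cluster. The text names all measured axis ligands and receptors, of each other list the up to 4 most abundant members and the most extreme ratio, and the 5 genes most like each of the 3. Any other gene named was chosen after its values were seen.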

Additional observations from a re-analysis of the deposited data

How the results depend on the processing

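Of 82 alternative values, 46 stayed within the interval or within 1.5 times the reported value and 36 moved. Only the log2 ratios, with 17 alternatives for each of the 3 genes, have a direction that could change, and 0 did. Shares and counts have none, and counts of cells on a single plate are parts of the whole count and so lie below it. The cause of the moves was not tested. The log2 ratio of endothelial to microglia class for Cxcl12 (6.04) was 5.41 with the mean of per-cell CPM, 7.03 on plates A and B alone, 7.25 on A, 6.92 on B, 5.86 without plate A, 6.24 without C and 6.17 without D. For Cxcr4 (-3.25) it was -2.53 with per-cell means, -4.03 with no pseudocount, -3.92 with a pseudocount of 0.1 CPM, -4.43 on plates A and B, -4.79 on B and -2.12 without B. For Ackr3 (7.73) it was 8.34 with no pseudocount, 8.26 with 0.1 CPM, 8.67 on plates A and B, 9.58 on B, 8.65 without A and 6.66 without B. Alternatives chosen after seeing the data gave 6.43 for Cxcl12 and 8.51 for Ackr3 without the highest cell of each class, 6.61 and 8.57 without microglia-class cells with 10 reads of either gene, and -2.24 for Cxcr4 without cluster 3. TMM scaling moved the median of all genes by -0.07 and no direction. With 10 reads as the limit, Cxcl12 was found in 53.2% of endothelial and 0.714% of microglia-class cells, Ackr3 in 60.4% of endothelial cells, Cxcr4 in 5.00% of microglia-class cells, and both Cxcl12 and Ackr3 in 35 endothelial cells. Thinning gave 79.3% and 36.6% for Cxcl12. Cells with both genes numbered 5, 8, 37 and 26 on plates A to D. The highest Cxcr4 level of a cluster was 60.0 CPM as a mean over cells. No paired analysis was possible because each class is 1 sample and no replicate number ties cells across classes; ratios within plates A and B, which hold both classes, stand in its place. Endothelial Cxcr4 rests on 27 reads in all, and 5 of the 7 cells with a read kept one after thinning.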
